A study of Mus musculus with 9 samples.

Results

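Expression of 10 genes of the unfolded protein response was followed in cultured mouse prostate cancer cells. The genes are Hspa5, Hsp90b1, Pdia4, Pdia6, Dnajb9, Herpud1, Sdf2l1, Creld2, Manf and Xbp1, chosen by symbol because they belong to the ATF6 and XBP1 arms of that response, and all 10 were found among the 12842 genes of the deposited table. The cells, called NPK, came from lung metastases of a genetically engineered mouse model of prostate cancer. The study asked what the histone methyltransferase Nsd2 does in prostate cancer, and silenced it with shRNA in such cells among others. The compound experiments it describes used a human prostate cancer cell line. It names caveats that keep it from concluding directly that the compound acts by inhibiting NSD2. The samples used here are control NPK cells and NPK cells labelled with an shRNA or a compound. RNA-seq libraries were made from polyadenylated RNA of 3 groups of 3 samples each.

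The control group is described only as control cells. The study used a luciferase shRNA in the pLKO.1 vector as its control for silencing, and the labels do not say whether these cells carried it. In the shNsd2 group the titles name an shRNA against Nsd2, while a second label of the same samples names Nsd2, Nsd3 and Nsd4 in turn, and which shRNA clone each sample received is not given. In the MCTP group the labels number the compound 39 in replicate 1, 40 in replicate 2 and 41 in replicate 3. The study describes only number 39, which it calls a putative inhibitor of NSD2, so the 3 samples may or may not have received the same compound. Dose, time and vehicle for these cells were not found in the sources used here. Nothing states that replicates were separate cultures, and p-values therefore measure only the spread between these libraries, which may be technical.

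Proteins bound for the cell surface or the outside are folded in the endoplasmic reticulum (ER). When unfolded protein accumulates there, ATF6 travels to the Golgi and is cut by proteases to release a transcription factor, while the kinase and nuclease IRE1 splices Xbp1 mRNA into a form that encodes another. Both factors raise the chaperones, oxidoreductases and degradation proteins of the compartment, and a further sensor, PERK, slows translation and brings on ATF4. Secretory epithelium such as that of the prostate carries a heavy load of such folding.

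Each value was scaled between libraries by the authors with a transform that is not named, and is taken here as log2. Ratios given below treat a difference of 1 as a doubling and are approximate to the extent that the transform differs from log2. Counts were not used here, and the depth of each library is unknown. Nsd2, listed under its earlier symbol Whsc1, was 12.48, 12.43 and 12.42 in the control libraries, 11.56, 11.61 and 11.68 in the shNsd2 libraries and 12.15, 12.21 and 12.07 in the MCTP libraries. Every shNsd2 library was below all other libraries, as the titles would have it, and every MCTP library was below every control library. With MCTP its log2 fold change was -0.30 (SE 0.0537, adjusted p = 0.00562 from limma), and -0.11 once GC content was corrected for (adjusted p = 0.123, where the alternatives ranged from 0.000272 to 0.123).

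The epithelial character of the cells was checked with marker genes, of which the keratin Krt8 was the most abundant, with a mean of 16.30. Krt8 was at 16.21, 16.35 and 16.28 in control, 16.15, 16.10 and 15.97 in shNsd2 and 16.57, 16.34 and 16.70 in MCTP libraries, and Krt18 and Krt19 were high as well. For Krt8 all shNsd2 libraries were below all control libraries, and MCTP replicate 2 lay within the control range. Krt19 was called lower with shNsd2 (-0.34) and higher with MCTP (0.37), with no overlap with control in either comparison. Of 8 epithelial genes tested, 2 were called higher and 5 lower with shNsd2, and 2 higher and 1 lower with MCTP. Other epithelial genes did not all move like Krt19. The basal keratin Krt14 was called higher with shNsd2 (0.78) and with MCTP (1.19), and Krt7 higher with shNsd2 (0.22). Cdh1 was called lower with both (-0.20 and -0.34), as Krt19 was with shNsd2 only. Krt5 was not among the genes of the table, and Epcam was below the filter. The mesenchymal gene Vim had a mean of 17.27, and 5 of 8 mesenchymal markers were in the table, with summed values of 17.18, 17.28 and 17.25 in control, 17.10, 17.12 and 17.01 in shNsd2 and 17.57, 17.41 and 17.66 in MCTP libraries. That sum is nearly all Vim, which was called higher with MCTP (0.32) and lower with shNsd2 (-0.16), whereas Col1a1 was called lower with both (-0.33 and -0.30). With shNsd2 Col3a1 was lower as well (-0.28), so that 3 of the 4 tested fell, and Pdgfra, close to the filter, was higher (0.13). Plasma cells are rich in ER chaperones, but only Sdc1 of their 6 markers was in the table, a gene that epithelium also expresses, and its values were 14.34, 14.50 and 14.52 in control, 14.12, 14.06 and 14.01 in shNsd2 and 14.65, 14.42 and 14.68 in MCTP libraries. Of 7 leukocyte markers 2 were in the table, Cd14, with a mean of 10.42 and no call against control, and Cd68. Cd68 was at 6.50, 6.51 and 6.60 in control, 6.78, 6.78 and 6.72 in shNsd2 and 7.20, 7.15 and 7.44 in MCTP libraries. The 3 groups did not overlap, and Cd68 was called higher with shNsd2 (0.23, adjusted p = 0.00227 from limma) and with MCTP (0.73, adjusted p = 0.000688 from limma). Of 4 endothelial markers only Cdh5 was listed, at 3.56, below the filter, and of 6 lung epithelial markers 2, led by Ager at 4.96. The part of these marker differences in the results below was not tested, and in bulk RNA fewer cells of a kind and less RNA per cell cannot be told apart.

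Library MCTP replicate 2 stood apart from its group. The SD over genes of its difference from the mean of the rest of its group was 0.204, against 0.0797 and 0.154 for MCTP replicates 1 and 3 and 0.0592 to 0.117 for the other libraries. Libraries also differed in how values followed GC content: per 10 percentage points of GC, the deviation from the mean of all 9 libraries changed by -0.154 in control replicate 1, -0.064 in MCTP replicate 2, 0.129 in MCTP replicate 1 and 0.199 in MCTP replicate 3. The GC content of the longest transcript was 40.6% for Dnajb9, 42.1% for Hsp90b1, 45.6% for Hspa5 and up to 56.7% for Sdf2l1, and the median for all genes was 49.8%. For Nsd2 and the 10 genes, values without MCTP replicate 2 or after GC correction are given where a call changed with them.

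Silencing of Nsd2 and the MCTP compound were followed by different changes in these genes. A gene is called when its adjusted p from limma, corrected over all genes tested, is under 0.05. All 10 genes passed the filter on low values (above 3.78 in at least 3 libraries) in every comparison. Each result was also computed in 13 alternatives, which changed the filter, the scaling or the fit, corrected for GC content, or left out 1 library. With shNsd2, 4 of the 10 were called higher, Creld2, Hspa5, Manf and Pdia4, and none (0) lower, and limma gave no lower gene at an unadjusted p under 0.05 either (0). With 1 library left out the members called higher ranged from 2 (without shNsd2 replicate 1) to 5, and after GC correction Xbp1 was called lower. Over all 12205 genes tested, 47.8% were called, 23.1% higher and 24.8% lower, so that the share of the 10 genes called was below that of all genes and the higher calls were 4 of 10 against 23.1%. In 5 of the 10 genes the libraries of the groups were fully apart, where the share of all genes was 57.2%. The median log2 fold change of the 10 genes was 0.08, and that of all genes tested 0.00.

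With MCTP, 3 of the 10 genes were called lower, Herpud1, Hsp90b1 and Hspa5. None (0) was called higher, and none (0) was higher at an unadjusted p under 0.05. Over all 12216 genes tested, 35.2% were called, 18% higher and 17.2% lower, which is close to the share of the 10 genes. The groups were apart for 5 of the 10 genes, as for 50.6% of all genes. The median was -0.09, beside -0.01 for all genes, and with median centring they were -0.04 and 0.04, while quantile normalization gave -0.06 for the 10 genes. Of all genes called, 51.1% were higher, and 64.4% after centring the libraries on their medians. The same 3 genes were called lower without MCTP replicate 2, with Sdf2l1 called higher as well, in a fit that called 60.4% of all genes. Only 1 of the 10 was called without MCTP replicate 1, and 2 without control replicate 2 or control replicate 3. After GC correction 6 of the 10 were called, Dnajb9 higher and Pdia6, Manf and the first 3 lower, in a fit that called 45.8% of all genes.

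The difference between the treated groups was tested directly, shNsd2 against MCTP, with libraries that also enter the comparisons with control. Here 6 of the 10 genes were called higher in shNsd2 cells, Herpud1, Hspa5, Hsp90b1, Creld2, Manf and Pdia4, and none (0) lower, also at an unadjusted p under 0.05 (0). Over all 12217 genes tested, 43.2% were called, 20.6% higher and 22.6% lower. The groups were apart for 6 of the 10, beside 55% of all genes. The median was 0.23 for the 10 genes and 0.01 for all genes. Without MCTP replicate 2, 8 of the 10 were called, 7 higher with Dnajb9 among them and Xbp1 lower, in a fit that called 63.6% of all genes. Only 4 were called without MCTP replicate 3, shNsd2 replicate 1 or shNsd2 replicate 3. The number was 5 without MCTP replicate 1 or shNsd2 replicate 2, and also with median centring. In all, 6 of the 10 genes were called in at least 1 comparison, where 69.3% of all genes were, and 1 (Hspa5) in all 3, as were 9.09% of all genes. The 4 called in no comparison were Pdia6, Dnajb9, Sdf2l1 and Xbp1.

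**Figure D1:**
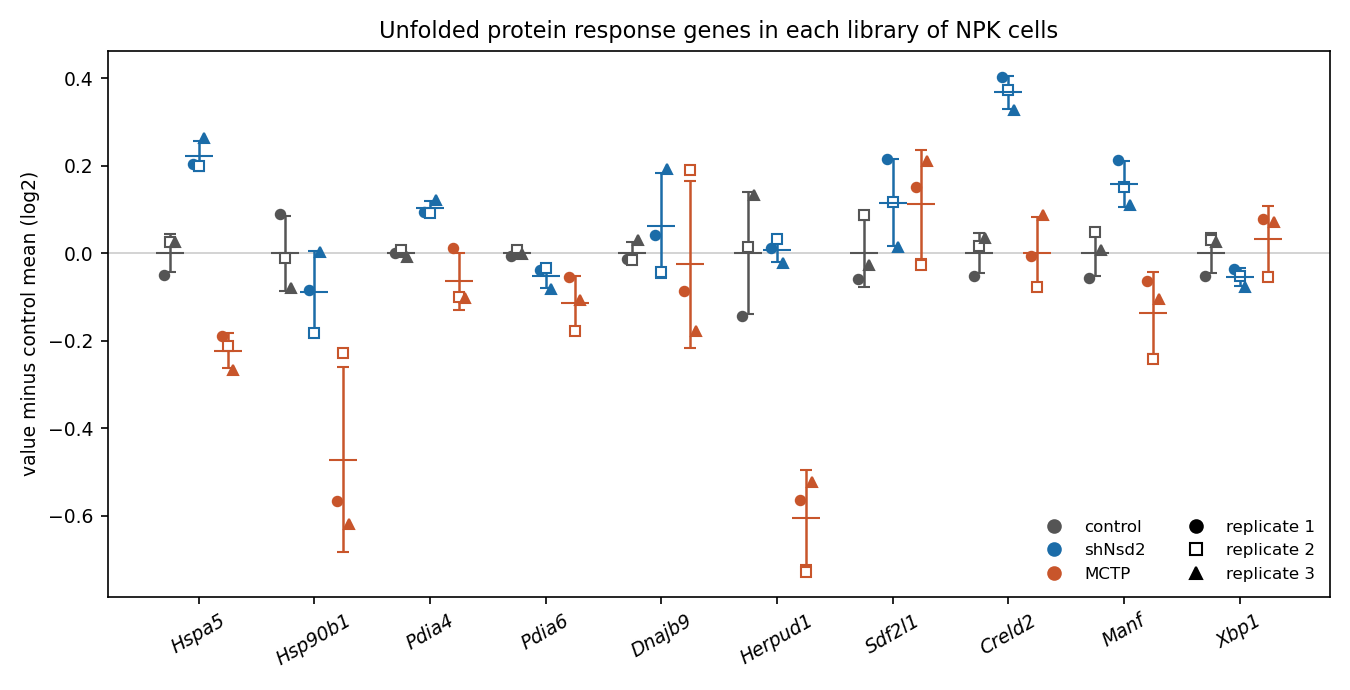
Value of each of the 10 genes in each library, minus the gene's mean in control cells, on the log2 scale; symbols are single libraries, horizontal bars group means and vertical bars the SD of 3 libraries. Creld2 and Hspa5 lay above control in all shNsd2 libraries, Herpud1, Hsp90b1 and Hspa5 below control in all MCTP libraries, and MCTP replicate 2 (open squares) was the highest MCTP library for Hsp90b1 and Dnajb9.

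Hspa5 encodes BiP, the HSP70 chaperone of the ER, which binds unfolded chains and also holds the stress sensors inactive. Its values were 14.46, 14.53 and 14.53 in control libraries, 14.71, 14.71 and 14.77 in shNsd2 libraries and 14.32, 14.30 and 14.24 in MCTP libraries. The 3 groups did not overlap, with the shNsd2 libraries highest and the MCTP libraries lowest. Hspa5 rose with shNsd2 by a log2 fold change of 0.22 (SE 0.0394, adjusted p = 0.00184 from limma), 1.17 ± 0.0280 (SD, n = 3) times the control mean on the linear scale. It fell with MCTP, with a log2 fold change of -0.22 (SE 0.0536, adjusted p = 0.0170 from limma), and stood at 0.857 ± 0.0237 (SD, n = 3) of the control level. The direct difference between the treated groups was 0.45 (SE 0.0491, adjusted p = 0.000519 from limma). The rise was called in all 13 alternatives, but the fall was not past the threshold without control replicate 2 (adjusted p = 0.0849), control replicate 3 (0.0758) or MCTP replicate 1 (0.0534), over a range from 0.0031 to 0.0849. Corrected for GC content, the change with MCTP was -0.13, smaller by more than 1.5 times (adjusted p = 0.0469).

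Hsp90b1 encodes GRP94, the HSP90 of the ER, which folds integrins and Toll-like receptors. It was at 14.73, 14.63 and 14.56 in control, 14.56, 14.46 and 14.64 in shNsd2 and 14.07, 14.41 and 14.02 in MCTP libraries. The control and shNsd2 libraries overlapped, and all MCTP libraries were below both groups, with MCTP replicate 2 closest to them. Hsp90b1 fell with MCTP by 0.47 on the log2 scale (SE 0.106, adjusted p = 0.0131 from limma), to 0.721 of the control level. Without MCTP replicate 2 the log2 fold change was -0.59 (adjusted p = 3.78e-05), and without MCTP replicate 1 it was -0.42 (adjusted p = 0.0649), the highest p of the 13 alternatives. After GC correction it was -0.29, smaller by more than 1.5 times and still called (adjusted p = 0.00153). The log2 fold change with shNsd2 was -0.09 (95% interval -0.22 to 0.05, adjusted p = 0.247 from limma). Between the treated groups the difference was 0.38 (SE 0.107, adjusted p = 0.0233 from limma), and this call was lost without MCTP replicate 1 (adjusted p = 0.0966), MCTP replicate 3 (0.0550), shNsd2 replicate 1 (0.0702) or shNsd2 replicate 3 (0.0843), where the alternatives ranged from 5.85e-05 to 0.0966.

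A pair of genes serves BiP directly. Dnajb9 encodes ERdj4, a J-domain cochaperone that brings misfolded clients to BiP and is raised by spliced XBP1, and Sdf2l1 encodes a partner of ER J-proteins that helps keep BiP clients soluble. Dnajb9 was at 8.21, 8.20 and 8.25 in control, 8.26, 8.17 and 8.41 in shNsd2 and 8.13, 8.41 and 8.04 in MCTP libraries. The groups overlapped, and shNsd2 replicate 3 and MCTP replicate 2 were the highest of all. Its log2 fold change was 0.06 with shNsd2 (95% interval -0.07 to 0.20, adjusted p = 0.422 from limma). With MCTP it was -0.03 (95% interval -0.24 to 0.19, adjusted p = 0.845 from limma), and it turned to 0.00 under quantile normalization, 0.02 with median centring and 0.18 after GC correction (adjusted p = 0.0324, the lowest of the alternatives, whose highest was 0.993). Between the treated groups it was 0.09 (adjusted p = 0.523 from limma), and 0.19 without MCTP replicate 2 (adjusted p = 0.0361, where the alternatives ranged up to 0.935).

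Sdf2l1 was at 9.37, 9.51 and 9.40 in control, 9.64, 9.54 and 9.44 in shNsd2 and 9.58, 9.40 and 9.64 in MCTP libraries. Control replicate 2 reached into both treated groups, and MCTP replicate 2 lay at the level of control replicate 3. With shNsd2 the log2 fold change was 0.12 (95% interval -0.02 to 0.25, adjusted p = 0.146 from limma) and with MCTP 0.11 (95% interval -0.07 to 0.29, adjusted p = 0.280 from limma). It was past the threshold without shNsd2 replicate 3 in the first comparison (0.17, adjusted p = 0.0482) and without MCTP replicate 2 in the second (0.18, adjusted p = 0.0258), the lowest values over the alternatives, which ranged up to 0.433 and 0.875. The treated groups differed by 0.00 (95% interval -0.18 to 0.19, adjusted p = 0.973 from limma), with the sign changing under quantile normalization and median centring.

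Pdia4 and Pdia6 encode protein disulfide isomerases, which form and rearrange disulfide bonds, and Pdia6 also binds IRE1. Pdia4 was at 13.38, 13.39 and 13.38 in control, 13.48, 13.48 and 13.51 in shNsd2 and 13.40, 13.28 and 13.28 in MCTP libraries. All shNsd2 libraries were above all others, while MCTP replicate 1 lay just above the control libraries and MCTP replicates 2 and 3 below them. The rise with shNsd2 was 0.10 on the log2 scale (SE 0.0315, adjusted p = 0.0244 from limma), and the difference between the treated groups was 0.17 (SE 0.0497, adjusted p = 0.0297 from limma). The first call was kept in 2 of 6 fits that left out a library, those without control replicate 1 or shNsd2 replicate 3, and was lost with all 9 libraries in 1 fit (adjusted p = 0.0822), over a range from 0.00154 to 0.106. The call between the treated groups was kept in 2 of 6, those without MCTP replicate 1 or MCTP replicate 2, and lost with median centring (adjusted p = 0.0590), over a range from 0.00751 to 0.134. With MCTP the log2 fold change of Pdia4 was -0.06 (95% interval -0.18 to 0.06, adjusted p = 0.355 from limma).

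Pdia6 was at 13.71, 13.72 and 13.71 in control, 13.67, 13.68 and 13.63 in shNsd2 and 13.66, 13.54 and 13.61 in MCTP libraries. The control libraries lay within a narrow band, and every treated library was below it, although no comparison was past the threshold. The log2 fold change was -0.05 with shNsd2 (95% interval -0.13 to 0.02, adjusted p = 0.221 from limma) and -0.11 with MCTP (95% interval -0.23 to 0.01, adjusted p = 0.122 from limma). After GC correction the second was -0.11 with an adjusted p of 0.0498, the lowest of its alternatives, whose highest was 0.386. Between the treated groups the difference was 0.06 (adjusted p = 0.356 from limma).

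Herpud1 encodes a membrane protein that assembles the ubiquitin ligase complexes of ER-associated degradation, and it is known to respond to both ATF6 and ATF4. It was at 11.29, 11.45 and 11.57 in control, 11.45, 11.47 and 11.41 in shNsd2 and 10.87, 10.71 and 10.91 in MCTP libraries. The shNsd2 libraries lay within the control range, whereas every MCTP library was below all libraries of the other groups. Herpud1 fell with MCTP by 0.61 on the log2 scale (SE 0.0850, adjusted p = 0.0021 from limma), to 0.656 ± 0.0486 (SD, n = 3) of the control mean, and 1.3% of all genes tested had a lower log2 fold change. The fall was called in all 13 alternatives, with log2 fold changes from -0.68 to -0.54 and adjusted p from 8.67e-05 to 0.0142. With shNsd2 the log2 fold change was 0.01 (95% interval -0.13 to 0.15, adjusted p = 0.935 from limma), and it changed sign without control replicate 1 (-0.07), without shNsd2 replicate 2 (-0.01) and after GC correction (-0.02). The treated groups differed in Herpud1 by 0.61 (SE 0.0619, adjusted p = 0.000347 from limma), a call kept in all 13 alternatives.

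Creld2 and Manf encode soluble ER proteins that are secreted when the compartment is stressed, the former a disulfide isomerase-like protein and the latter a neurotrophic factor that binds BiP. Creld2 was at 9.999, 10.07 and 10.09 in control, 10.45, 10.42 and 10.38 in shNsd2 and 10.04, 9.97 and 10.14 in MCTP libraries. All shNsd2 libraries were above all others, while the MCTP and control libraries overlapped. The rise with shNsd2 was 0.37 on the log2 scale (SE 0.0403, adjusted p = 0.000139 from limma), or 1.29 ± 0.0340 (SD, n = 3) times the control mean, and 97.6% of all genes tested had a lower log2 fold change. With MCTP the log2 fold change was 0.00 (95% interval -0.14 to 0.14, adjusted p = 0.995 from limma). The treated groups differed by 0.37 (SE 0.0567, adjusted p = 0.00213 from limma), and both calls of Creld2 were kept in all 13 alternatives.

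Manf was at 12.28, 12.38 and 12.34 in control, 12.55, 12.49 and 12.44 in shNsd2 and 12.27, 12.09 and 12.23 in MCTP libraries. The 3 groups did not overlap, in the order shNsd2, control, MCTP, but the gap between control replicate 1 and MCTP replicate 1 was small. Manf rose with shNsd2 by 0.16 on the log2 scale (SE 0.0413, adjusted p = 0.0122 from limma). Without shNsd2 replicate 1 the rise was 0.13 and no longer past the threshold (adjusted p = 0.0573, the highest of the alternatives, whose lowest was 0.00371). With MCTP the log2 fold change was -0.14 (95% interval -0.28 to 0.01, adjusted p = 0.117 from limma), and after GC correction it was -0.18 and called (adjusted p = 0.00939, where the alternatives ranged up to 0.321). The difference between the treated groups, 0.29 (SE 0.0598, adjusted p = 0.00684 from limma), was called in all 13 alternatives.

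Xbp1 itself encodes the transcription factor of the IRE1 arm. Its values were 11.91, 11.99 and 11.99 in control, 11.93, 11.91 and 11.88 in shNsd2 and 12.04, 11.91 and 12.03 in MCTP libraries. The groups overlapped, control replicate 1 and MCTP replicate 2 lying at the level of the shNsd2 libraries. The log2 fold change was -0.06 with shNsd2 (95% interval -0.14 to 0.03, adjusted p = 0.230 from limma) and 0.03 with MCTP (95% interval -0.10 to 0.16, adjusted p = 0.677 from limma). After GC correction the first was -0.09 and called (adjusted p = 0.0169, where the alternatives ranged up to 0.541) and the second was -0.04. Between the treated groups it was -0.09 (adjusted p = 0.203 from limma), and -0.13 without MCTP replicate 2 (adjusted p = 0.0131, the lowest of the alternatives, whose highest was 0.445). The table holds a single value for the gene, so the spliced and unspliced forms cannot be told apart, and neither splicing nor ATF6 cleavage was measured.

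**Figure D2:**
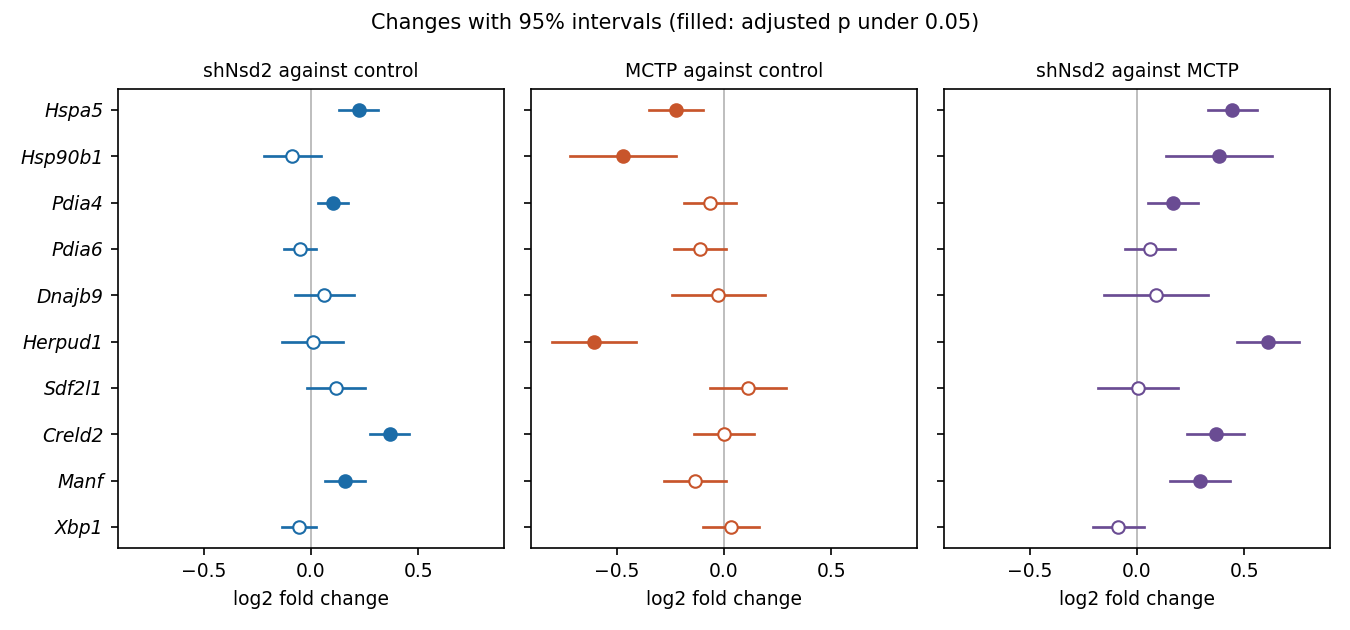
Log2 fold change of each of the 10 genes with its 95% interval from limma, in the 3 comparisons; filled points have an adjusted p under 0.05. Called genes were higher with shNsd2 (Hspa5, Pdia4, Creld2, Manf), lower with MCTP (Hspa5, Hsp90b1, Herpud1) and higher in shNsd2 than in MCTP cells (6 genes).

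Divided by the length of the longest transcript, the level of the genes spanned a wide range. In control cells the log2 value per kilobase was highest for Hsp90b1 (12.95 ± 0.0854, SD, n = 3), followed by Hspa5 (12.63 ± 0.0433) and Pdia6 (12.59 ± 0.00666), whose libraries overlapped. Below them on the same scale came Pdia4 (12.12), Manf (11.17), Xbp1 (10.87), Herpud1 (10.47), Creld2 (9.60), Sdf2l1 (9.28) and Dnajb9 (6.92), with no overlap between neighbours. In shNsd2 cells Hsp90b1 (12.87) and Hspa5 (12.85) overlapped, and Pdia6 was apart from both. In MCTP cells Hsp90b1 (12.48), Pdia6 (12.48) and Hspa5 (12.41) overlapped in turn, as did Manf (11.03) and Xbp1 (10.90).

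Within groups the 10 genes did not vary as a single block. After each group was centred on its mean, the Pearson correlation over the 9 libraries was computed for all 45 pairs of genes, as a description. Its median was 0.15, with a range from -0.91 to 0.95, and 27 pairs were above 0. Manf and Xbp1 (0.95), Sdf2l1 and Manf (0.91) and Hsp90b1 and Dnajb9 (0.88) were the most alike, while Hsp90b1 ran against Xbp1 (-0.91), Herpud1 (-0.85) and Creld2 (-0.85). Hsp90b1 and Dnajb9 have the lowest GC content of the 10, and in MCTP replicate 2 they were 0.24 and 0.21 above their group mean, while Herpud1 and Sdf2l1 were 0.12 and 0.14 below theirs. These libraries share their scaling and their differences along GC content, and the part of either in the correlations was not tested. The median SD within groups was 0.0637 for the 10 genes and 0.0657 for all genes.

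The mean of the 10 genes was 11.93, 11.99 and 11.98 in control, 12.07, 12.03 and 12.05 in shNsd2 and 11.84, 11.80 and 11.81 in MCTP libraries, an order without overlap. Among the single genes only Hspa5 and Manf had that order without overlap. With MCTP their log2 fold changes ran from -0.61 (Herpud1) to 0.11 (Sdf2l1) over the 10 genes, so the mean does not stand for each of them. The median of all genes varied from 9.61 to 9.67. Among 12229 genes, leaving out all lists, those with the pattern over the 9 libraries most like that mean were Gm9797 (Pearson r 0.992), Bcat1 (0.991), Adm2 (0.991), Farsb (0.99) and Shmt2 (0.99). Bcat1, for example, was at 10.24, 10.54 and 10.61 in control, 10.97, 10.94 and 10.96 in shNsd2 and 9.53, 9.42 and 9.62 in MCTP libraries, a wider spread between groups than that of any of the 10 genes. Most like Hspa5 alone were Cpox (0.995), Aqr (0.994), Hoxb8 (0.994), Serinc2 (0.989) and Pdgfb (0.989). The libraries fall into 3 groups, and each r includes the differences between group means.

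Counts of list genes that rose or fell are of called genes, to be read beside the shares of all genes tested. Those shares were 23.1% higher and 24.8% lower with shNsd2, and 18% and 17.2% with MCTP. Between the treated groups they were 20.6% and 22.6%. The sensors and their processing enzymes, a list of 8 genes, moved in both directions. With shNsd2, 2 rose, Atf6b (0.19) and the tRNA ligase D10Wsu52e (0.15), which rejoins spliced Xbp1, and 3 fell, among them Atf6 (-0.24) and the PERK gene Eif2ak3 (-0.17), with a list median of -0.10. With MCTP none (0) rose and 3 fell, led by Atf6 (-0.49) and the site-2 protease gene Mbtps2 (-0.42), with a median of -0.15. Compared with MCTP cells, 3 were higher in shNsd2 cells, led by Atf6 (0.25) and Ern2 (0.24), and Eif2ak3 (-0.23) was lower. With 1 library left out, the falls ranged from 0 to 3 with shNsd2 and from 1 to 4 with MCTP. The rises ranged from 1 to 2 and from 0 to 1, and none (0) rose with shNsd2 with all 9 libraries in 1 fit. Between the treated groups 2 to 4 were higher and 0 to 1 lower with 1 library left out.

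Other ER chaperones and cochaperones numbered 24. Beside the counts here, 23.1% of all genes were called higher and 24.8% lower with shNsd2, and 18% and 17.2% with MCTP. Between the treated groups it was 20.6% and 22.6%. With shNsd2, 3 rose, led by the BiP exchange factor Hyou1 (0.28) and the lectin chaperone Calr (0.21), and 8 fell, led by Wfs1 (-0.40) and Sil1 (-0.40), another exchange factor of BiP. With MCTP, 7 rose, led by Fkbp10 (0.39) and Wfs1 (0.33), and limma called none (0) lower, but the rises ranged from 1 to 9 and the falls from 0 to 6 with 1 library left out, and 5 fell after GC correction and 4 with all 9 libraries in 1 fit. The medians were -0.07 and 0.01, and between the treated groups 1 was higher (1 to 5 with 1 library left out), Hyou1 (0.29), and 10 were lower (5 to 13 with 1 library left out), led by Wfs1 (-0.73) and Fkbp14 (-0.41). Of 18 ER oxidoreductases, P4hb (0.19) rose and 8 fell with shNsd2, led by the oxidase Ero1l (-0.71) and Tmx4 (-0.54), while with MCTP 3 rose, led by Selm (0.60) and P4hb (0.28), and 6 fell, led by Ero1l (-1.16) and Tmx4 (-0.43). Their medians were -0.12 and -0.08, and between the treated groups Ero1l (0.45) was higher and 3 were lower, led by Selm (-0.62) and Qsox1 (-0.53). The oxidoreductases that rose with MCTP ranged from 1 to 4 and those that fell from 1 to 7 with 1 library left out, and between the treated groups the ranges were 1 to 3 higher and 3 to 5 lower, with 2 higher and 6 lower after GC correction.

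For the next 4 lists the shares of all genes were 23.1% called higher and 24.8% lower with shNsd2, and 18% and 17.2% with MCTP. Between the treated groups they were 20.6% and 22.6%. Of 25 genes of ER-associated degradation in the table, 5 rose and 6 fell with shNsd2, the rises led by the ligase gene Syvn1 (0.36) and Nploc4 (0.26), and Edem1 (-0.26) among the falls, but with 1 library left out only 3 or 4 rose and 4 to 7 fell. With MCTP 8 rose, again led by Syvn1 (0.41) and Nploc4 (0.34), and Edem1 (-0.15) fell. With 1 library left out the rises ranged from 2 (without control replicate 2) to 12 (without MCTP replicate 2) and the falls from 0 to 4. The medians were -0.03 and 0.08, and 8 were lower in shNsd2 than in MCTP cells (5 to 12 with 1 library left out), led by Edem2 (-0.36) and Vcp (-0.31). In the translocon and signal peptidase, 4 of 24 genes rose and 3 fell with shNsd2, led by Sec61a1 (0.27), Srprb (0.24), Spcs3 (-0.34) and Sec62 (-0.20), and 2 rose and 2 fell with MCTP, Srp14 (0.29), Sec61g (0.19), Spcs3 (-0.46) and Ssr1 (-0.18), while Ssr2 (0.27) and Spcs2 (0.14) were higher and Srp14 (-0.30) lower between the treated groups. Of 11 genes of the oligosaccharyltransferase, 3 rose and 3 fell with shNsd2, led by Krtcap2 (0.19), Dad1 (0.15), Tusc3 (-0.42) and Magt1 (-0.31), and Ost4 (0.36) rose and 3 fell with MCTP, led by Tusc3 (-0.25) and Ostc (-0.17), with Ost4 (-0.36) and Tusc3 (-0.18) lower between the treated groups. The median of the oligosaccharyltransferase with shNsd2 was 0.02 and that of the translocon with MCTP -0.01, and in both comparisons the medians of these lists changed sign under another scaling or GC correction. Of 27 genes of ER to Golgi transport, 5 rose and 9 fell with shNsd2, led by Sec24c (0.20), Kdelr3 (0.18), Sec23a (-0.56) and Lman1 (-0.30), with a median of -0.04, and 8 rose, led by Creb3 (0.50) and Sec24d (0.29), and Lman1 (-0.40) fell with MCTP, with a median of 0.09, while 8 were lower in shNsd2 than in MCTP cells, led by Creb3 (-0.60) and Sec23a (-0.55). Leaving out 1 library moved the calls with MCTP to between 1 and 6 higher and 1 and 7 lower in the translocon, 0 and 3 higher and 1 and 4 lower in the oligosaccharyltransferase, and 2 and 13 higher and 1 and 4 lower in ER to Golgi transport. With shNsd2 the transport genes called ranged from 2 to 7 higher and from 4 to 11 lower, and the oligosaccharyltransferase genes called higher from 1 to 3. Between the treated groups the ranges were 0 to 6 higher and 1 to 6 lower in the translocon, 0 to 3 lower in the oligosaccharyltransferase and 6 to 16 lower in transport.

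Targets of the ATF4 arm, 14 genes, had the lowest list median with MCTP. With MCTP 11 fell, led by Trib3 (-1.43) and the glutathione-degrading enzyme Chac1 (-1.29), and 2 rose, Atf3 (0.53) and Sesn2 (0.26), for a median of -0.56 beside 17.2% of all genes called lower, and with 1 library left out 9 to 11 fell and 0 to 2 rose, 0 of them without MCTP replicate 1. With shNsd2 3 rose, led by Sesn2 (0.53) and Ppp1r15a (0.50), and 2 fell, Vldlr (-0.86) and Slc7a11 (-0.34), for a median of 0.14, and the 5 calls of 14 stood beside 47.8% of all genes. The rises ranged from 2 to 8, the most without control replicate 3, and the median from 0.04 to 0.19 with 1 library left out, and the median was 0.08 after GC correction. Directly compared, 13 were higher in shNsd2 cells, led by Trib3 (1.90) and Chac1 (1.45), and Atf3 (-0.29) was lower.

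Chaperones outside the ER were followed for comparison. Their counts stand beside 23.1% of all genes called higher and 24.8% lower with shNsd2, and 18% and 17.2% with MCTP. Between the treated groups the shares were 20.6% and 22.6%. Of 25 cytosolic chaperones and their factors, 11 rose with shNsd2, led by Hspa1b (0.71) and Hsph1 (0.66), and Dnajb4 (-0.34) fell, whereas with MCTP 7 rose, led by Cryab (2.07) and Hspb1 (1.07), and 2 fell, Ptges3 (-0.41) and Hspa4l (-0.39). The medians were 0.12 and 0.09, and between the treated groups 7 were higher, led by Hsph1 (0.57) and Chordc1 (0.55), and 5 lower, led by Cryab (-2.14) and Hspb1 (-1.01). Of 12 mitochondrial chaperones and proteases, 6 rose with shNsd2, led by Lonp1 (0.40) and Hspe1 (0.31), and none (0) fell, while with MCTP Grpel1 (0.28) rose and 3 fell, led by Hspa9 (-0.50) and Hspd1 (-0.29). Their medians were 0.13 and -0.09, and 6 were higher in shNsd2 than in MCTP cells, led by Hspa9 (0.58) and Lonp1 (0.52). The mitochondrial median with MCTP ranged from -0.13 to -0.03 with 1 library left out, and was -0.05 with median centring. With 1 library left out, the cytosolic chaperones called with MCTP ranged from 6 to 12 higher and 0 to 6 lower, and between the treated groups from 1 to 11 higher and 3 to 5 lower. The mitochondrial list ranged with MCTP from 0 to 2 higher and 1 to 4 lower, with 7 lower after GC correction, and with shNsd2 1 of its genes was called lower without control replicate 1 and 2 after GC correction.

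The list genes named for shNsd2 against control were past the threshold in each of 13 alternatives, except Atf6b, D10Wsu52e, Atf6, Eif2ak3, P4hb, Sec62, Krtcap2, Dad1, Kdelr3, Slc7a11 and Dnajb4. Of 32 named for MCTP against control, 16 were, and Mbtps2, Wfs1, P4hb, Tmx4, Edem1, Sec61g, Ssr1, Ost4, Tusc3, Ostc, Atf3, Sesn2, Ptges3, Hspa4l, Grpel1 and Hspd1 were not, the calls of Tusc3, Edem1, Ssr1 and Ostc being among those lost after GC correction. Of 27 named between the treated groups, 21 were, and Eif2ak3, Ssr2, Spcs2, Ost4, Tusc3 and Chordc1 were not.

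**Figure D3:**
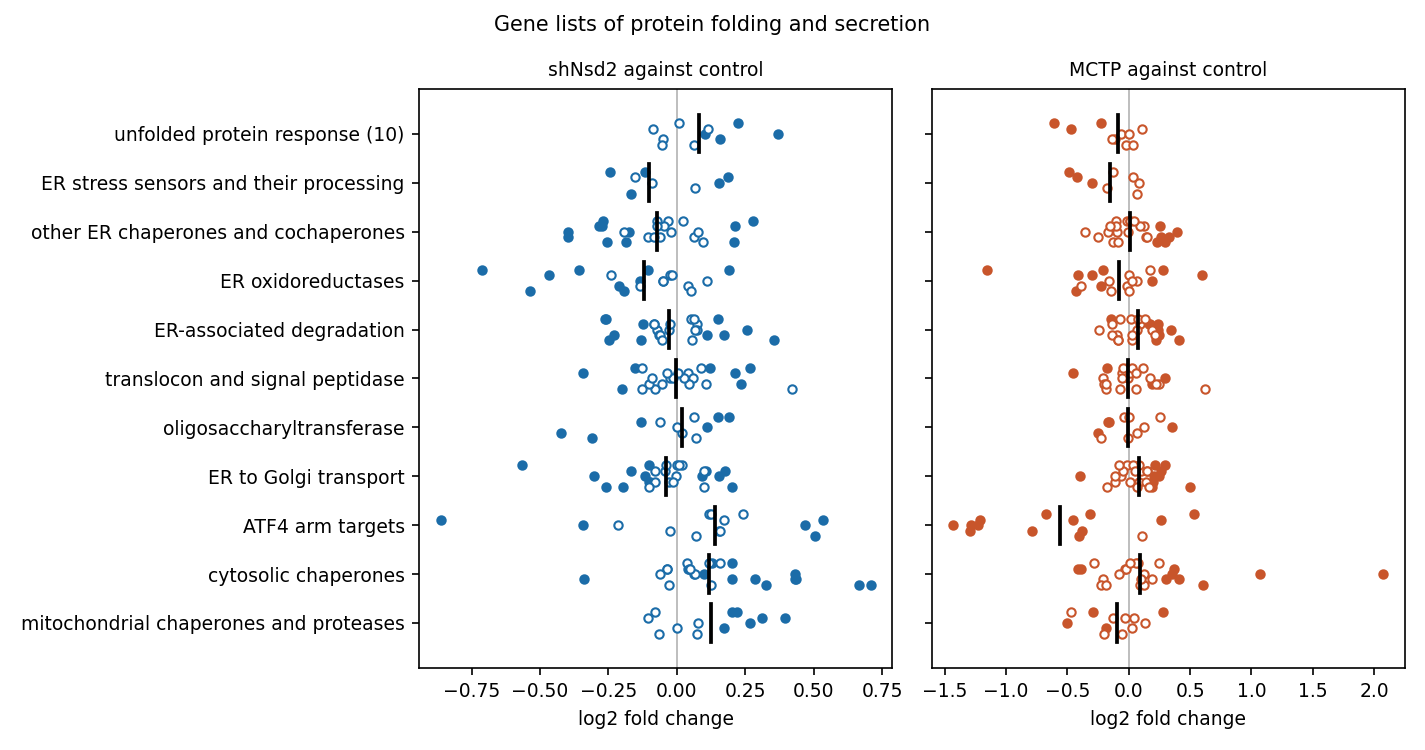
Log2 fold change of every tested gene of each list, with shNsd2 (left) and with MCTP (right) against control, on axes of different range; filled points have an adjusted p under 0.05 and black lines are list medians. The 10 genes of the unfolded protein response had medians of 0.08 and -0.09, and the targets of the ATF4 arm 0.14 and -0.56.

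The promoters of the 10 genes were searched because 6 of them were called in the same direction between the treated groups, and because ATF6 and XBP1 have known motifs. RefSeq promoters on GRCm38.p6, each 300 bases long from 250 before to 50 after the start, were given for 9 of them, all but Manf, and for 32851 entries in all. The submitters' processing notes name the older build mm9 for the reads, and no coordinate of that build is used here. Motifs were searched as exact letters on both strands. The ER stress response element, CCAAT and CCACG with 9 bases between them, is known as the site of ATF6 with NF-Y. It was in 4 of the 9 promoters, Hspa5, Hsp90b1, Pdia6 and Creld2, and in 0.119% of all promoters (39). The genes were chosen as members of the ATF6 and XBP1 arms. A higher share with such elements can follow from that choice alone and is not a finding about the treatments. The second element, ATTGG and CCACG with 1 base between them, was in the promoter of Herpud1 and in 0.0365% of all (12). The unfolded protein response element, TGACG directly followed by TGG, was in none of the 9 (0) and in 0.676% of all. CCACG, which each of these elements holds on either strand, was in 8 of the 9, all but Xbp1, and in 32.8% of all. A composite, TGATG directly followed by CAA and known to bind ATF4 with C/EBP factors, was in Herpud1 and in 0.895% of all.

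Sequences are shown for the 5 promoters with an element, as the 250 bases before the start read 5′ to 3′ along the gene, with the letters of the elements in capitals and the spacer in lower case.
Hspa5, chr2:34771840-34772089 (+ strand): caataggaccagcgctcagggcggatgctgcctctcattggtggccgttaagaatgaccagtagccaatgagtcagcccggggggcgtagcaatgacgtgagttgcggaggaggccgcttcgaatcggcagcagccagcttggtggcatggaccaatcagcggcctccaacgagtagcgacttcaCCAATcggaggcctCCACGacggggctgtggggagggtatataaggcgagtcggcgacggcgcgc
Hsp90b1, chr10:86705445-86705694 (- strand): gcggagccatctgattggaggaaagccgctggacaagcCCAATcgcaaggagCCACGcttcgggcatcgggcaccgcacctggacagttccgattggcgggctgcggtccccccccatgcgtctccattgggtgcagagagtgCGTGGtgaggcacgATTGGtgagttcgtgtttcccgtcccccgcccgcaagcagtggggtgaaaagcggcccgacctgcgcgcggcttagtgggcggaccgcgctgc
Pdia6, chr12:17266339-17266588 (+ strand): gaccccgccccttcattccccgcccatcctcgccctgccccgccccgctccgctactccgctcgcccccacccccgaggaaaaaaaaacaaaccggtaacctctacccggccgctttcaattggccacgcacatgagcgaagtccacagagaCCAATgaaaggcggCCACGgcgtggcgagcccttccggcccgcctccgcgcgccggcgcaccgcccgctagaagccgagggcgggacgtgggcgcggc
Creld2, chr15:88819396-88819645 (+ strand): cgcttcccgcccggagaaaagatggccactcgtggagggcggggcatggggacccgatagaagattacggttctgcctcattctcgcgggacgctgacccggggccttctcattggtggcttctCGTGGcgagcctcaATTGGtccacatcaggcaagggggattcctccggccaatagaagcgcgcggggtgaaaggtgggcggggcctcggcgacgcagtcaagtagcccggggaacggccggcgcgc
Herpud1, chr8:94386179-94386428 (+ strand): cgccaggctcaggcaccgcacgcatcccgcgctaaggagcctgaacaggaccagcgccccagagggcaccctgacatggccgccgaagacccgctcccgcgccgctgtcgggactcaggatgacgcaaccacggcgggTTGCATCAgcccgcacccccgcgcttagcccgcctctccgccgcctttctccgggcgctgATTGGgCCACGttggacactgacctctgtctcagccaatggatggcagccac

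In Hspa5 the element began 65 bases before the start. Hsp90b1 held it at 212 bases, and again at 107 bases in the opposite orientation, written CGTGG and ATTGG. It began 98 bases before the start in Pdia6 and 126 bases before it in Creld2, there in the opposite orientation. Herpud1 had the second element at 52 bases and the composite at 112 bases, the latter on the opposite strand, so that the letters along the gene are TTG directly followed by CATCA. Of the 4 genes with the first element, Hspa5, Hsp90b1 and Creld2 were called higher in shNsd2 than in MCTP cells, and Pdia6 was not called. In that comparison 43.2% of all genes tested were called, 20.6% higher and 22.6% lower. Against control, Hspa5 was called with both treatments, Hsp90b1 only with MCTP, Creld2 only with shNsd2 and Pdia6 with neither. Among the lists, the ER stress response element was also in promoters of Calr, Canx and Dnajc3, of Ero1lb (named Ero1b in RefSeq), and of Syvn1 and Derl3. Derl3 was not among the genes of the deposited table. None of the others was called between the treated groups: Calr (-0.04), Canx (0.07), Dnajc3 (0.075), Ero1lb (-0.16) and Syvn1 (-0.05). Whether the element bears on the changes was not tested. The second element was also in promoters of Dnajb11 and Krtcap2, and the unfolded protein response element in 5 of 26 promoters of ER to Golgi transport, 2 of 21 of oxidoreductases and 2 of 21 of ER-associated degradation. The composite was in 5 of 16 promoters of the ATF4 arm targets, those of Atf3, Chac1, Nupr1, Slc7a11 and Vldlr. A match describes letters in the window and says nothing of binding.

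**Figure D4:**
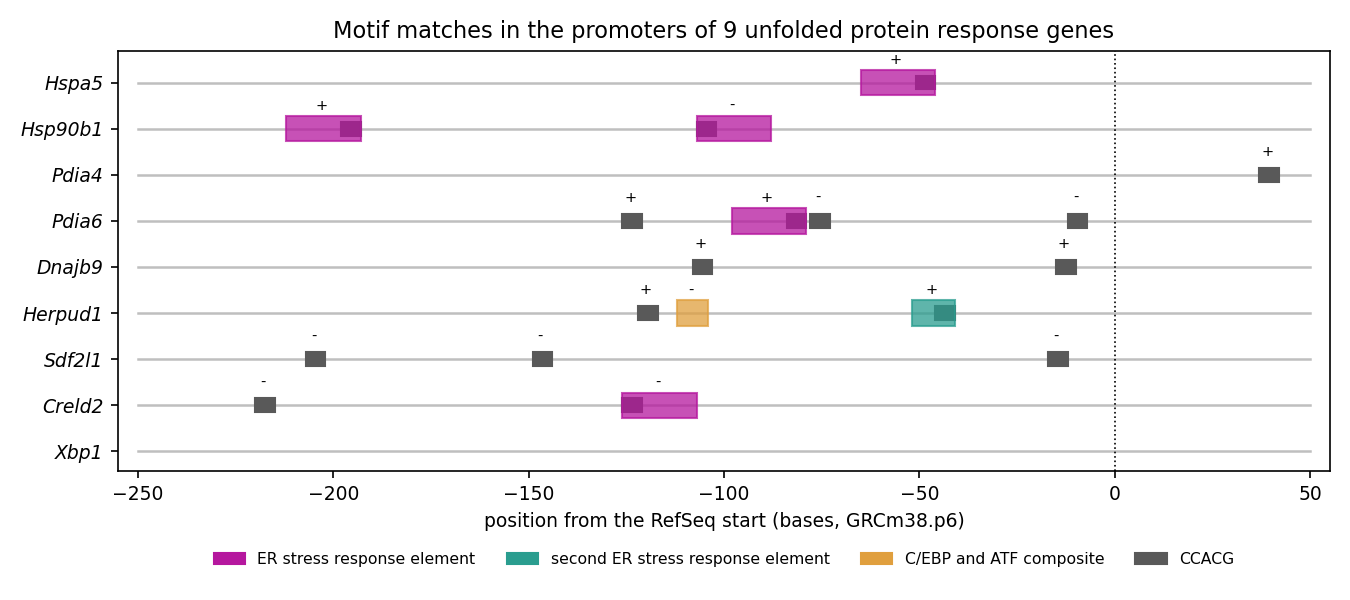
Positions of the motif matches in the 9 promoters, from 250 bases before to 50 bases after the RefSeq start; boxes are matches, and + and - give the strand along the gene. Hsp90b1 held 2 ER stress response elements, Hspa5, Pdia6 and Creld2 held 1 each, and Herpud1 held the second element and the composite.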

How the data were processed

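The authors deposited 1 table of values for 12842 genes, taken here as log2, and do not name its transform. The methods mention variance stabilization where they describe other samples. The submitters' processing notes name bcl2fastq 1.8.4, TopHat, Cufflinks, DESeq and DESeq2 without roles, and build mm9. Of 12 value columns, 3 match no sample and were not used. The members and lists were chosen with earlier results of these data known.

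A gene was tested if 3 or more libraries of the 6 compared exceeded 3.78, the median of the lowest 10% of values. Tests used limma 3.58.1 under R 4.3.3, with a trend in eBayes and Benjamini-Hochberg adjustment over all genes. The fits and the motif search were tried on simulated data. The text names all members, Nsd2, the markers, in each list up to 2 of the largest rises and falls past the threshold per comparison, the 5 genes most like the members or Hspa5, and list genes with a motif; some genes that this covers are not reported. GC content and lengths came from the longest GENCODE M21 transcript, found for 97.4% of genes. Alternatives were no filter, all 9 libraries in 1 fit, a replicate block, quantile normalization, median centring, no trend, GC correction (lowess, span 0.3; it also removes real change that follows GC content) and each library left out. Python 3.11.15 and matplotlib 3.10.9 drew the figures. The planned protein step was not run.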

Additional observations from a re-analysis of the deposited data

How the results depend on the processing

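Over 390 combinations of a member, a comparison and an alternative, 343 kept direction and side of the threshold, 22 lost the call, 7 gained one with the direction kept and 18 reversed, of which Dnajb9 with MCTP after GC correction also gained a call; no called result reversed. The median log2 fold change of the members with shNsd2 was 0.114 under quantile normalization, that with MCTP was -0.055 under quantile normalization and -0.042 with median centring, and that between the treated groups was 0.208 with median centring. After GC correction 6 members were called with MCTP.

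With 1 library left out, the median ranged from 0.058 to 0.112 with shNsd2, from -0.122 to -0.08 with MCTP and from 0.219 to 0.268 between the treated groups. The members called ranged from 2 to 5 with shNsd2, from 1 to 4 with MCTP and from 4 to 8 between the treated groups. The genes called ranged from 4332 to 6006 with shNsd2, from 2029 to 7372 with MCTP and from 3361 to 7756 between the treated groups, in the last 2 the most without MCTP replicate 2.

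Reversals with shNsd2 were Herpud1 after GC correction (-0.025) and, with 1 library left out, Herpud1 (-0.065 to 0.073) and Dnajb9 (-0.002 to 0.116). With MCTP they were Dnajb9 under quantile normalization (0.001), median centring (0.021) and GC correction (0.181), Creld2 (-0.088) and Xbp1 (-0.036) after GC correction, and, with 1 library left out, Dnajb9 (-0.133 to 0.05) and Creld2 (-0.042 to 0.04). Between the treated groups they were Dnajb9 after GC correction (-0.059) and Sdf2l1 under quantile normalization (-0.017), median centring (-0.019) and with 1 library left out (-0.066 to 0.054).

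The groups share replicate numbers and nothing states a pairing. The mean correlation of deviations between libraries of the same number was -0.25 for control and shNsd2, -0.184 for control and MCTP and -0.36 for shNsd2 and MCTP. With the replicate block, 4515, 3399 and 3794 genes and 3, 2 and 5 members were called with shNsd2, with MCTP and between the treated groups, where Pdia4 (adjusted p = 0.106 and 0.134) and, with MCTP, Hspa5 (0.0707) were no longer past the threshold.

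With 3 libraries a group, no statement of separate cultures, no depth and compound numbers that differ within the MCTP group, spread between libraries cannot be divided into technical and biological parts.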
